A study of Mus musculus with 6 samples.

Results

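Translation initiation factors (Eif genes) and elongation factors (Eef genes) were followed through 6 lists of promoter acetylation from mouse intestinal epithelium. Members were the protein-coding genes whose listed symbol starts with Eif or Eef and a digit. Of 71 such genes in the RefSeq gene table of GRCm38.p6, 55 were tied to at least 1 called interval. Of all 21900 protein-coding genes of that table, 9700 were. Of the 55, 52 had an interval within 1 kb of their own transcription start site, against 8164 of the 9700 genes with such a promoter interval. Being listed in at least 1 library therefore chose the members, and no test was made on it.

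The mark was acetylation of lysine 9 of histone H3 (H3K9ac), measured by chromatin immunoprecipitation and sequencing of epithelial cells of the distal intestine from C57BL/6 mice. The 3 groups were conventional mice, which carry a full microbiota, mice monoassociated with Escherichia coli, which carry that bacterium alone and are called E. coli or monoassociated here, and germ-free mice, which carry none. Each group had 2 libraries. The labels used here name no genotype or allele and no age or sex. They do not say whether animals were pooled, nor whether replicates are separate animals, and any spread between replicates could be technical.

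Initiation factors bring the small ribosomal subunit, the initiator tRNA and the capped mRNA together, and elongation factors then carry aminoacyl-tRNAs to the ribosome and move it along the message. H3K9ac is a mark of active promoters and usually lies just downstream of the start site. In the intestine the epithelium renews itself within days and makes large amounts of secreted and membrane protein, and its cells use the whole set of general factors. Phosphorylation of eIF2 and sequestration of the cap-binding protein eIF4E are the best-known ways in which cells slow translation under stress or shortage of nutrients.

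The lists differed much in length, also between replicates of 1 group. They held 3117 and 15352 intervals in conventional replicates 1 and 2, 1988 and 870 in E. coli replicates 1 and 2, and 4430 and 17094 in germ-free replicates 1 and 2. The labels state 20 M reads for each library. The background pileup behind the fold values, a measure of the reads used, was 0.413 and 0.381 in the conventional, 0.690 and 0.403 in the monoassociated and 0.733 and 0.579 in the germ-free lists, the last inferred. Of 12 epithelial markers, a promoter interval was called for 11 and 12 in the conventional, 9 and 7 in the monoassociated and 11 and 12 in the germ-free libraries. Of 13 leukocyte markers and 14 markers of stroma, endothelium, muscle and nerve, 0 were called in any library. Fewer cells with an acetylated promoter and less acetylation per cell cannot be told apart in such bulk samples.

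Calls at the factor promoters followed the length of the lists. Promoter intervals were listed for 10 and 47 of the 52 genes in the conventional libraries, for 5 and 4 in the E. coli libraries and for 13 and 49 in the germ-free libraries. As shares of the 52 these were 19.2% and 90.4%, 9.62% and 7.69%, and 25% and 94.2%. Among all 8164 marked genes the shares were 24.6% and 88.8% in the conventional, 11.4% and 5.08% in the monoassociated and 29.8% and 80.2% in the germ-free libraries. The share of the factor genes lay close to that of all genes in both E. coli libraries and in the second conventional library. The widest gap was in the second germ-free library, at 94.2% against 80.2%. The factor share was the lower in the first replicate of each group and the higher in the second. Replicate numbers are tied to no batch and these gaps were not tested, so no common pattern is read from their direction.

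**Figure D1:**
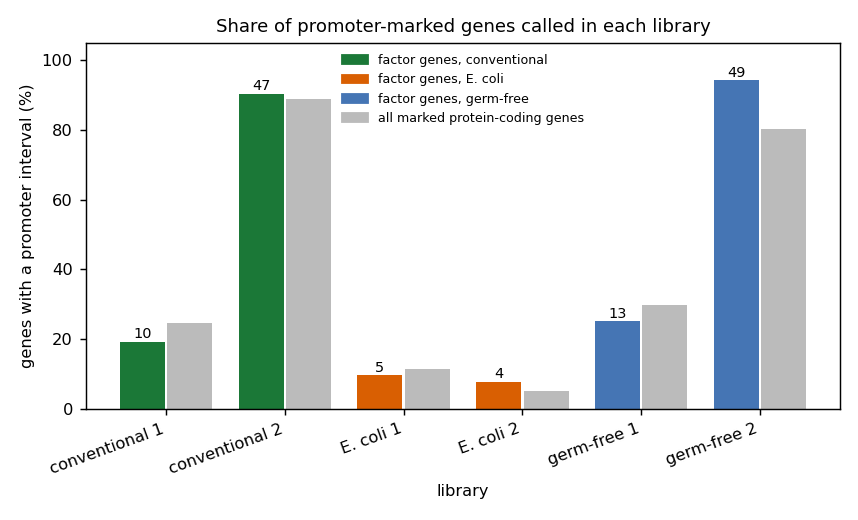
Share of genes with a promoter interval in each library (y axis, percent) for the 52 factor genes (coloured bars, with their number above) and all 8164 marked protein-coding genes (grey bars). The factor bars reach 90.4% in conventional replicate 2 and 94.2% in germ-free replicate 2, and lie under 10% in both E. coli libraries.

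Most factor promoters were called in the pair of longest lists and nowhere else. Of the 52 genes, 28 had an interval in conventional replicate 2 and germ-free replicate 2 only, which is 53.8% of them, against 32.6% of all marked genes. A single library called 8 (15.4%, against 26.8% of all marked genes). Those were Eef1d, Eif2s3y and Eif3k in conventional replicate 2 and Eif2ak4, Eif2b1, Eif2b4, Eif2d and Eif4ebp3 in germ-free replicate 2. A further 5 genes were called in 3 libraries, 7 in 4, 3 in 5 and 1 in all 6. Without an interval at the promoter were the eIF2B subunit gene Eif2b5, the cap-binding gene Eif4e3, and Eif3j2, a copy of Eif3j1 that the lists tie only to the interval of Eif3j1 on another chromosome.

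**Figure D2:**
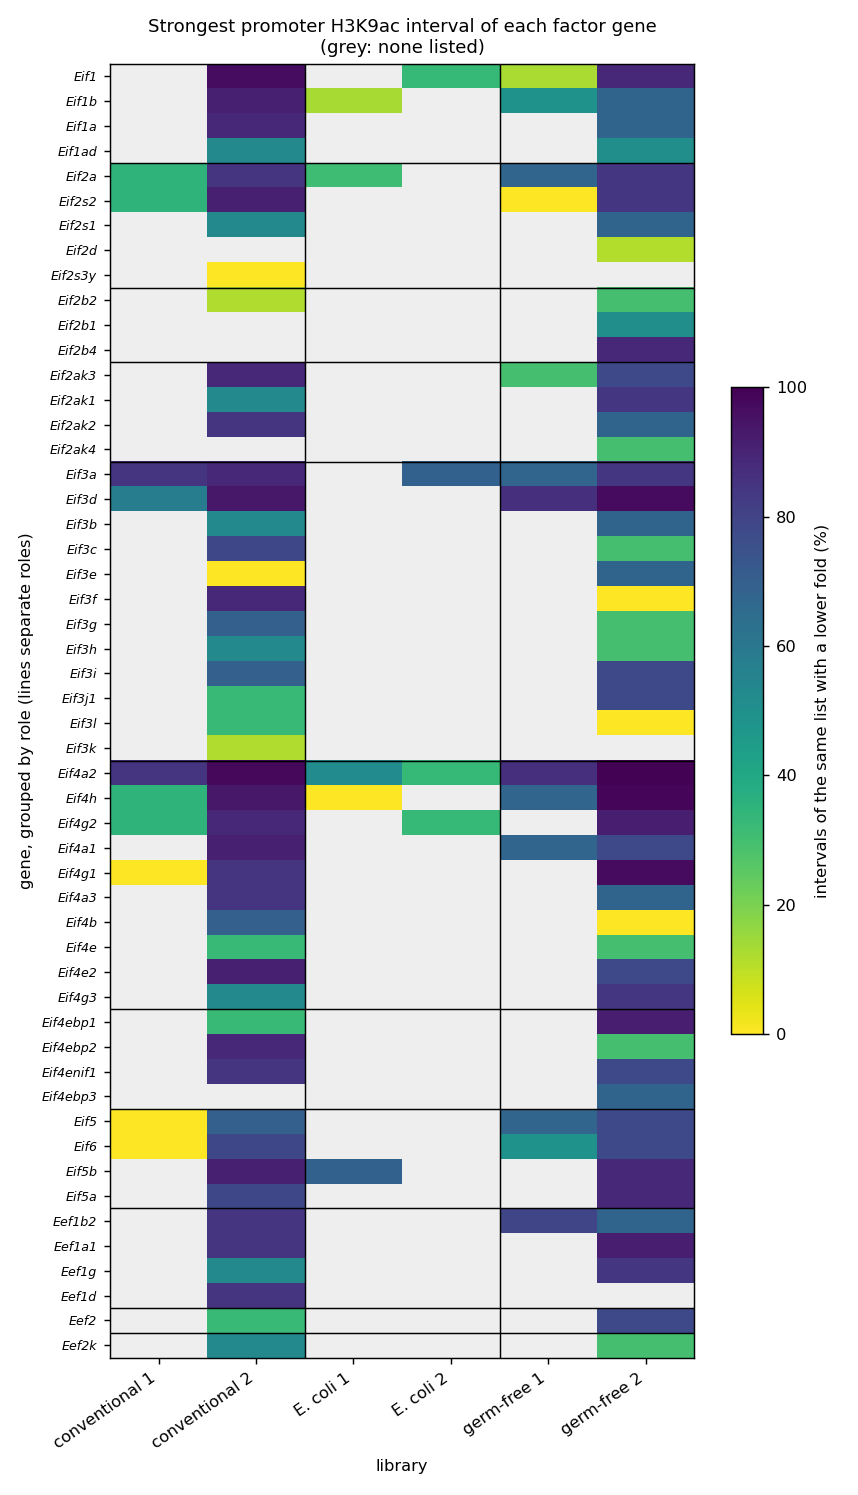
Each row is 1 of the 52 factor genes, grouped by role, and each column 1 library. Colour gives the percentage of intervals of the same list with a lower fold than the gene's strongest promoter interval, and grey means that none was listed. The row of Eif4a2 is filled in all 6 columns, and the columns of conventional replicate 2 and germ-free replicate 2 are nearly full.

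Eif4a2, which encodes a DEAD-box RNA helicase of the cap-binding complex eIF4F, was the 1 factor gene with a promoter interval in all 6 libraries. That is 1.92% of the 52 genes, against 2.72% of all marked genes. Its strongest interval had a fold enrichment of 7.78 and 13.04 in the conventional lists, 5.92 and 5.70 in the E. coli lists and 7.50 and 16.5 in the germ-free lists. Fold enrichment is the authors' value for each interval, relative to the background of its own list, and ranks intervals within a list only. In the longest lists, conventional replicate 2 and germ-free replicate 2, Eif4a2 was the highest of the factor genes, above 97.7% and 99.4% of all their intervals. In the E. coli lists it was above 51.9% and 32.9% of the intervals. It was also the 1 factor gene called in both E. coli libraries, which is again 1.92% of the 52, against 3.09% of all marked genes. The intervals of the 6 libraries had 106 bp in common, chr16:23108089-23108194, which lies 610 to 715 bp downstream of the start site. The same intervals are also tied to Snord2, a small nucleolar RNA gene inside Eif4a2, and with such shared intervals left out Eif4a2 was no longer called in all 6 libraries.

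Eif4h, Eif2a and Eif3a had a promoter interval in 5 libraries each. Eif4h encodes a helper of the eIF4A helicases, and its strongest interval had a fold of 5.66 and 10.1 in the conventional lists, 4.14 in E. coli replicate 1 and 6.35 and 12.7 in the germ-free lists. The 4.14 was the lowest fold that the list of E. coli replicate 1 holds, and E. coli replicate 2 listed no interval. The 5 libraries shared 146 bp, from 465 to 610 bp downstream of the start site. Eif2a encodes an alternative carrier of initiator tRNA, distinct from the eIF2 subunits. Its strongest interval had a fold of 5.66 and 7.97 in the conventional lists, 5.33 in E. coli replicate 1 and 6.35 and 7.60 in the germ-free lists. At Eif2a the 132 bp in common lay upstream, at -511 to -380 bp from the start site, the direction in which Serp1, a gene of the opposite strand that shares the intervals, is transcribed.

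Eif3a encodes the largest subunit of eIF3, the complex that holds the small ribosomal subunit ready for the mRNA. Its strongest interval had a fold of 7.78 and 8.69 in the conventional lists, 7.13 in E. coli replicate 2 and 6.35 and 7.60 in the germ-free lists. Calls at Eif3a did not mark 1 common place. No base was covered in all 5 libraries, and at most 4 met at any base. E. coli replicate 2 listed only an upstream interval, at -395 to -210 bp from the start site, while conventional replicate 1 listed only one from 458 to 764 bp downstream. Conventional replicate 2 and both germ-free libraries had intervals on both sides.

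**Figure D3:**
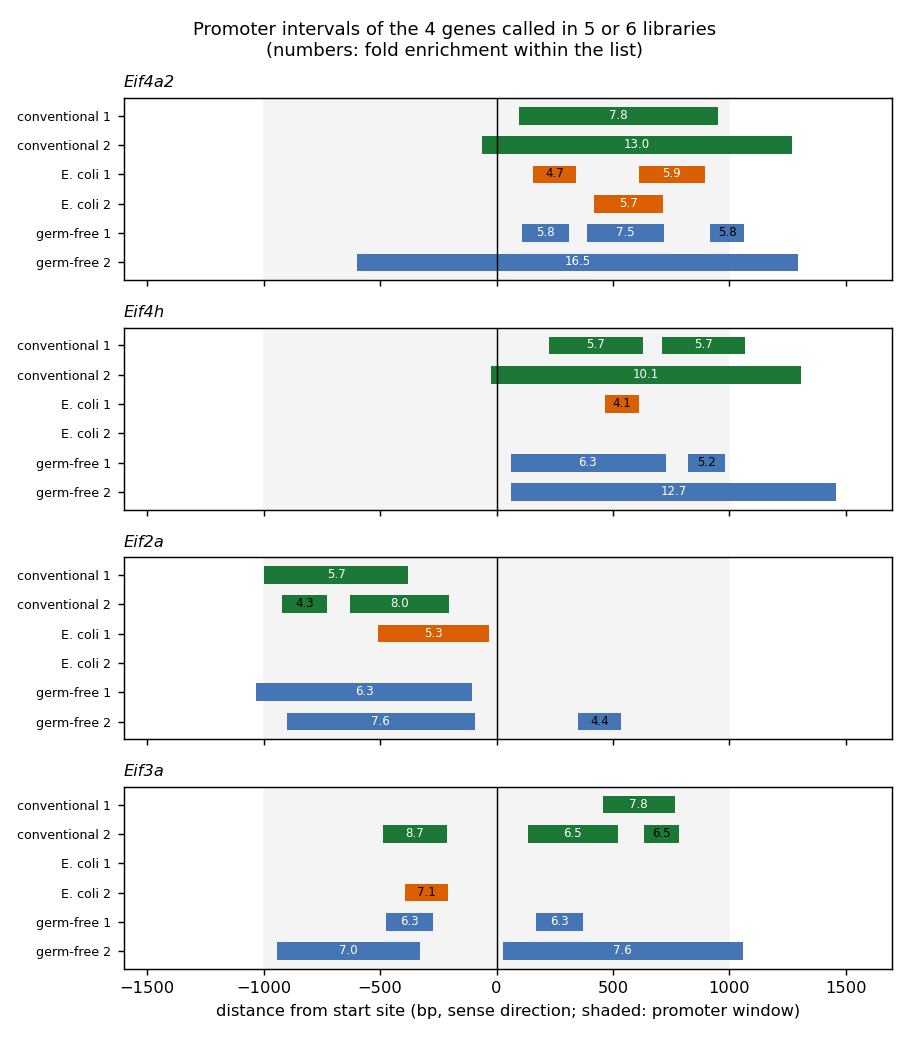
Promoter intervals of Eif4a2, Eif4h, Eif2a and Eif3a in the 6 libraries, drawn to scale against distance from the start site in the direction of transcription (bp), with the fold of each interval printed on it. The intervals of Eif4a2 and Eif4h lie mostly downstream, those of Eif2a mostly upstream, and those of Eif3a on both sides.

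The promoters of these 4 genes are shown because they were called most widely. Those of Eif4a1 and Eef1b2, called in both germ-free libraries and in no E. coli library, are set beside them. Each runs from 250 bases before to 29 bases after the start site of the RefSeq promoter table (GRCm38.p6), and is written 5′ to 3′ in the direction of the gene. Capitals mark matches on either strand to the E-box CACGTG, the NRF1 core TGCGCA, the ETS core CCGGAA, the YY1 core ATGGCG, the CRE core TGACGT, or TATAAA, the core of the classic box near the start. CACGTG and TGCGCA read the same on both strands. The windows are chr16:23107218-23107497, plus strand (Eif4a2), chr5:134639380-134639659, minus strand (Eif4h), chr3:58525571-58525850, plus strand (Eif2a), chr19:60790664-60790943, minus strand (Eif3a), chr11:69672394-69672673, minus strand (Eif4a1) and chr1:63176581-63176860, plus strand (Eef1b2).
Eif4a2: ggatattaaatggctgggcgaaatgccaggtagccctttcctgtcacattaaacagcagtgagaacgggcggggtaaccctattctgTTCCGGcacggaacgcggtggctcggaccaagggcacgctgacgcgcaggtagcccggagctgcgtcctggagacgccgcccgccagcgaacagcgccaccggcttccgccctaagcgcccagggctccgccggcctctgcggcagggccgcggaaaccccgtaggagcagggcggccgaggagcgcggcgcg
Eif4h: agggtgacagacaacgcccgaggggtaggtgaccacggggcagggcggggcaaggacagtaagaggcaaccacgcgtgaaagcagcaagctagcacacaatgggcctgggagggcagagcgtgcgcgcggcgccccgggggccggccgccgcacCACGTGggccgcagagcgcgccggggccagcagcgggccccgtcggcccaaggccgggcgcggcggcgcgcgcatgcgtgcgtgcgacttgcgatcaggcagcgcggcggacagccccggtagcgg
Eif2a: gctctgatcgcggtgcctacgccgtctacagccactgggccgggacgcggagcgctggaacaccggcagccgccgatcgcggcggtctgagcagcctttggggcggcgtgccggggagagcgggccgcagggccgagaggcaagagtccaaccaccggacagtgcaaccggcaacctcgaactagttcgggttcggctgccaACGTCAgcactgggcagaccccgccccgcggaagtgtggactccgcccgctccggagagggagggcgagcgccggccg
Eif3a: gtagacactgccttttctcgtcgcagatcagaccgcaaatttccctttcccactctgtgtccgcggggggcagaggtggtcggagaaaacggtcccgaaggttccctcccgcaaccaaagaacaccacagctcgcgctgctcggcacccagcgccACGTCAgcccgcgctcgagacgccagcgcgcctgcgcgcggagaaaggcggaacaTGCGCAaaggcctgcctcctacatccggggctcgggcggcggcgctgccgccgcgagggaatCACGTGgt
Eif4a1: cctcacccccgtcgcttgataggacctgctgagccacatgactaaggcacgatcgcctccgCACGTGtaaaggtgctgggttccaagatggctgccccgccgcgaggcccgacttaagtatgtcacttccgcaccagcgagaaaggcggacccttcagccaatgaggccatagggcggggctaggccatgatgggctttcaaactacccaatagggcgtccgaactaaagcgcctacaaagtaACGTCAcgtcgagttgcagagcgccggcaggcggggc
Eef1b2: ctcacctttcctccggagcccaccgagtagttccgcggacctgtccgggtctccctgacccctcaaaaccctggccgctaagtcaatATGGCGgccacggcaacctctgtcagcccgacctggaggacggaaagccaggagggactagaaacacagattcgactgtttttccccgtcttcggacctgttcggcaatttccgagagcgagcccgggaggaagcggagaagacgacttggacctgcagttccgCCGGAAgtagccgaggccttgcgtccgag

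The paralogs Eif4a1 and Eif4a2, helicases that can take the same place in eIF4F, differ in these windows. Eif4a2 held an ETS core match, with no E-box and no CRE core, and Eif4a1 held an E-box and a CRE core match, with no ETS core. Among the widely called genes Eif4h and Eif3a held an E-box, and Eif3a also held NRF1 and CRE core matches. A match describes letters and does not show binding.

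Of 7 short promoter motifs, 4 were held by a larger share of factor promoters than of marked promoters or of all promoters, as a description with no test. Of the 55 genes, 43 had an entry in the promoter table, and the whole windows of 250 bases before to 50 after the start were searched on both strands. Matches to different motifs may overlap, and each was counted. CACGTG was in 10 of the 43 (23.3%), against 10.1% of 6700 promoters of genes with a promoter interval and 7.75% of all 17492 promoters. Its carriers were Eef2, Eif1b, Eif3a, Eif3f, Eif3k, Eif4a1, Eif4e, Eif4g1, Eif4h and Eif5a. TGCGCA was in 25.6% of the 43, against 15.1% and 9.8% of the same comparison sets. CCGGAA was in 46.5%, against 32.8% and 18.9%, and TGACGT in 20.9%, against 13.1% and 8.52%. ATGGCG (16.3%, against 17.3% and 11%) and the GC box GGGCGG (65.1%, against 66.7% and 45.9%) stood near the share of marked promoters. TATAAA was in 11.6%, against 6.43% of marked and 13.3% of all promoters. The median GC content was 61.3% in factor promoters, 61.7% in marked and 56.3% in all promoters, with a median of 24, 22 and 13 CpG dinucleotides.

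mRNAs of many elongation factors begin with a C and a run of pyrimidines, the terminal oligopyrimidine tract through which mTOR controls their translation. At the RefSeq start site this pattern (C followed by 4 pyrimidines) was found for 1 of the 43 factor genes, Eif3f, which is 2.33%, equal to the 2.33% of marked promoters. Annotated starts can lie a few bases from the true ones, and what these letters show is limited to the annotated base. Eef2, the translocase that moves the ribosome along by a codon, held 5 of the 7 motifs, the most of any factor gene, and 4 of them lie in the printed part. Its window, chr10:81176381-81176660, plus strand, is printed for that reason.
Eef2: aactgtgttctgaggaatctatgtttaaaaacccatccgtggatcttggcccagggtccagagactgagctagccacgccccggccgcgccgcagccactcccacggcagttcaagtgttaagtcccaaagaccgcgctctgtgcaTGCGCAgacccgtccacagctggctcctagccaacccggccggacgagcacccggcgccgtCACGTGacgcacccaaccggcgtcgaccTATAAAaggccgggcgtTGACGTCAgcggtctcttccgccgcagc

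Among the factors that scan for the start codon, Eif1 and Eif1b, which encode the 2 forms of eIF1, were each called in 4 libraries. At Eif1 the fold was 11.6 in conventional replicate 2, 5.70 in E. coli replicate 2 and 4.62 and 8.24 in the germ-free lists. At Eif1b it was 9.41 in conventional replicate 2, 4.73 in E. coli replicate 1 and 5.77 and 6.33 in the germ-free lists. The 2 genes were thus called in different E. coli libraries and in neither case in conventional replicate 1. The intervals of Eif1 shared 340 bp in its 4 libraries, from 74 to 413 bp downstream of the start site, and those of Eif1b 74 bp. Eif1a and Eif1ad were called in the pair of longest lists only, and Eif1ax was in no list.

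eIF2 delivers the initiator tRNA, and its subunit genes differed in how widely they were called. Eif2s2, the beta subunit, had a fold of 5.66 and 9.41 in the conventional lists and 4.04 and 7.60 in the germ-free lists, and no interval in either E. coli list. Eif2s1, the alpha subunit that the stress kinases phosphorylate, was listed in conventional replicate 2 (5.79) and germ-free replicate 2 (6.33) only. For the gamma subunit, the Y-linked Eif2s3y was listed once, at 3.62 in conventional replicate 2, the lowest fold of that list, and Eif2s3x was in no list. Eif2d, which can also recruit tRNA, was listed once, at 4.43 in germ-free replicate 2.

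eIF2B recharges eIF2 with GTP, and 3 of its 5 subunit genes had a promoter interval, against 8164 of all 21900 protein-coding genes. Eif2b2 had a fold of 4.35 in conventional replicate 2 and 5.07 in germ-free replicate 2. Eif2b1 (5.70) and Eif2b4 (8.24) were listed in germ-free replicate 2 only, Eif2b5 had no promoter interval, and Eif2b3 was in no list. The Eif2b1 and Eif2b4 intervals are shared with Gtf2h3 and Snx17. Conventional replicate 1, both E. coli libraries and germ-free replicate 1, which called 24.6%, 11.4%, 5.08% and 29.8% of all marked genes, listed 0 of the 3.

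The 4 kinases that phosphorylate eIF2 were each listed at their promoter, against 8164 of all 21900 protein-coding genes. Eif2ak3 encodes PERK, the sensor of unfolded protein in the endoplasmic reticulum, and had a fold of 8.69 in conventional replicate 2 and 5.19 and 6.97 in the germ-free lists. Its 3 libraries shared 142 bp, from 756 to 897 bp downstream. Eif2ak2 (PKR, a sensor of double-stranded RNA) and Eif2ak1 (HRI, a sensor of haem) were listed in the pair of longest lists, at 7.97 and 5.79 in conventional replicate 2 and 6.33 and 7.60 in germ-free replicate 2. Eif2ak4 (GCN2, a sensor of uncharged tRNA) was listed at 5.07 in germ-free replicate 2 only. The authors class the Eif2ak1 intervals as intergenic, from another start site.

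Of the 13 listed eIF3 genes, 12 had a promoter interval, against 8164 of all 9700 listed genes. Conventional replicate 2 called all 12. Germ-free replicate 2 called 11, the exception being Eif3k. Of all marked genes, conventional replicate 2 called 88.8% and germ-free replicate 2 called 80.2%. Beside Eif3a, Eif3d was called in both conventional and both germ-free libraries, with a fold of 6.37 and 10.1 in the conventional and 7.50 and 11.4 in the germ-free lists. Eif3d encodes a subunit that can bind the cap of some mRNAs. Eif3d had intervals on both sides of its start site in each of the 4 libraries, and 317 bp were common to them. The other eIF3 genes were called in no library beyond the longest lists. They had folds of 3.62 (Eif3e) to 8.69 (Eif3f) in conventional replicate 2 and 3.80 (Eif3f and Eif3l) to 6.97 (Eif3i and Eif3j1) in germ-free replicate 2, so Eif3f was highest of them in the first of these lists and lowest in the second.

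The eIF4F group binds the cap and unwinds the leader. Of its 10 genes with a promoter interval, 4 and 10 were called in the conventional, 2 and 2 in the monoassociated and 3 and 10 in the germ-free libraries. The same libraries called 24.6% and 88.8%, 11.4% and 5.08%, and 29.8% and 80.2% of all marked genes. Eif4g1, the scaffold, had a fold of 4.25 and 7.97 in the conventional lists and 11.4 in germ-free replicate 2. Eif4g2 encodes a scaffold that does not bind the cap protein, and had 5.66 and 8.69 in the conventional lists, 5.70 in E. coli replicate 2 and 8.87 in germ-free replicate 2. No base of Eif4g2 was covered in all 4 of its libraries, and at most 3 met. Eif4a1 had 9.41 in conventional replicate 2 and 6.35 and 6.97 in the germ-free lists, with 281 bp in common. Eif4e, the cap-binding protein itself, had 5.07 in both of the longest lists, and these 2 intervals did not overlap. Eif4b was at 6.52 and 3.80, Eif4g3 at 5.79 and 7.60, Eif4a3 at 7.97 and 6.33 and Eif4e2 at 9.41 and 6.97 in conventional replicate 2 and germ-free replicate 2.

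The binding proteins that hold eIF4E back were called in the longest lists only. Conventional replicate 1, both E. coli libraries and germ-free replicate 1 called 24.6%, 11.4%, 5.08% and 29.8% of all marked genes. Conventional replicate 2 and germ-free replicate 2, with no other library, called 32.6% of them. Eif4ebp1, the main target of mTOR among them, had a fold of 5.07 in conventional replicate 2 and 8.87 in germ-free replicate 2. Eif4ebp2 had 8.69 in conventional replicate 2 and 5.07 in germ-free replicate 2. Eif4enif1, which carries eIF4E into the nucleus, had 7.97 and 6.97 in the same lists, and Eif4ebp3 had 6.33 in germ-free replicate 2.

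Factors that act when the subunits join were called in up to 4 libraries. Eif5, which triggers GTP hydrolysis on eIF2, had a fold of 4.25 and 6.52 in the conventional lists and 6.35 and 6.97 in the germ-free lists. The germ-free intervals of Eif5 did not overlap each other, and no base was covered in all 4 of its libraries. Eif6, which keeps the large subunit apart, had 4.25 and 7.24 in the conventional and 5.77 and 6.97 in the germ-free lists. The 4.25 of both genes, and that of Eif4g1, is the lowest fold in the list of conventional replicate 1. Eif5b, the GTPase that joins the subunits, had 9.41 in conventional replicate 2, 6.51 in E. coli replicate 1 and 8.24 in germ-free replicate 2. That 6.51 was the highest fold of a factor gene in E. coli replicate 1. However, its interval is centred at -936.5 bp from the Eif5b start site, just inside the window, and is shared with Txndc9. The 9.41 likewise belongs to an upstream interval, at -1298 to -861 bp from the start site. In conventional replicate 2 the downstream interval of Eif5b had 5.07. Eif5a, the hypusine-bearing factor that helps at hard-to-join residues, had 7.24 in conventional replicate 2 and 8.24 in germ-free replicate 2.

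The 6 elongation factor genes with a promoter interval, counting Eef2k, were called in at least 1 of the longest lists, and Eef1b2 also in germ-free replicate 1. None was called in conventional replicate 1 or an E. coli library, lists that called 24.6%, 11.4% and 5.08% of all marked genes. Eef1a1, which carries aminoacyl-tRNA to the ribosome, had a fold of 7.97 in conventional replicate 2 and 8.87 in germ-free replicate 2. E. coli replicate 1 listed an interval of 146 bp and a fold of 4.73 centred 1.11 kb downstream of the Eef1a1 start site, just outside the window. Eef1b2, an exchange factor subunit for eEF1A, had 7.97 in conventional replicate 2 and 6.93 and 6.33 in the germ-free lists. Its strongest interval lay upstream in each of the 3 libraries, and conventional replicate 2 and germ-free replicate 2 also listed intervals downstream. The 3 libraries had 34 bp in common at -405 to -372 bp from the start site. The intervals are shared with Ndufs1, a subunit gene of respiratory complex I. Another exchange factor subunit, Eef1g, had 5.79 and 7.60, and Eef2 had 5.07 and 6.97, in conventional replicate 2 and germ-free replicate 2. Eef1d was listed at 7.97 in conventional replicate 2 only. Eef2k, the kinase that halts eEF2, had 5.79 in conventional replicate 2 and 5.07 in germ-free replicate 2, where 35 bp of the interval reached into the window. Eef1a2, the muscle and neuron form of eEF1A, was in no list.

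Conventional and germ-free libraries were compared to see whether a microbiota changes the mark at factor promoters. None of the 52 genes was called in both conventional and neither germ-free library, against 0.808% of all marked genes. None was called in both germ-free and neither conventional library, against 0.661%. With 2 libraries a group an exact permutation of libraries cannot give a two-sided p below 0.333, so none is reported. All 10 genes of conventional replicate 1 were also called in germ-free replicate 2, as were 95.2% of all marked genes of that library, and all 13 genes of germ-free replicate 1 in conventional replicate 2, as were 95.6%. These counts rest on single libraries. Without conventional replicate 1, 3 genes (Eef1d, Eif2s3y and Eif3k) had the conventional pattern, as did 1424 of all marked genes, and without germ-free replicate 2, 2 genes did (Eif4g1 and Eif4g2), with 745 of all. Without conventional replicate 2, 5 genes (Eef1b2, Eif1, Eif1b, Eif2ak3 and Eif4a1) had the germ-free pattern, with 1029 of all marked genes, and without germ-free replicate 1, 5 others did (Eif2ak4, Eif2b1, Eif2b4, Eif2d and Eif4ebp3), with 837 of all. The counts over all marked genes with each library kept were 66 and 54.

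E. coli-monoassociated and germ-free libraries were compared to see what a single species does to the mark. No factor gene was called in both E. coli and neither germ-free library, and of all 8164 marked genes 0% were. In the other direction, 7 genes were called in both germ-free libraries and in no E. coli library, which is 13.5% of the 52, against 18.1% of all marked genes. They were Eef1b2, Eif2ak3, Eif2s2, Eif3d, Eif4a1, Eif5 and Eif6. Of the 13 factor genes called in both germ-free libraries these are 53.8%, against 65.5% of the 2253 genes called in both. The remaining 6 were Eif4a2, called in both E. coli libraries, and Eif1, Eif1b, Eif2a, Eif3a and Eif4h, called in 1 of them. The count of 7 became 41 without germ-free replicate 1, while that over all marked genes, 1475, became 5485. When every list was cut to its 870 intervals of highest significance, as many as the shortest list holds, it became 1, Eif3d, and that over all marked genes 73.

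Conventional and E. coli-monoassociated libraries were compared to set a full microbiota against a single species. Called in both conventional and neither E. coli library were 5 genes, Eif2s2, Eif3d, Eif4g1, Eif5 and Eif6, which is 9.62% of the 52, against 15% of all marked genes. Of the 10 factor genes called in both conventional libraries these are 50%, against 61.7% of the 1991 genes called in both. No factor gene had the opposite pattern, and of all marked genes 0% had. The count of 5 became 39 without conventional replicate 1, 3 with a window of 0.5 kb, 2 at a minimum -log10 q of 5, and 0 when equal numbers of intervals were taken. Over all marked genes the count, 1228, became 6169, 1061, 633 and 101 under the same settings. Eif2s2, Eif3d, Eif5 and Eif6 are in both this group of 5 and the 7 above, and the 2 comparisons share the E. coli libraries.

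The 8 factor genes with a call in either E. coli library were Eif1, Eif1b, Eif2a, Eif3a, Eif4a2, Eif4g2, Eif4h and Eif5b. All 8 were called in conventional replicate 2 and in germ-free replicate 2, where 98.6% and 96.7% of all genes of E. coli replicate 1, and 99% and 98.3% of those of E. coli replicate 2, were called too. In conventional replicate 2 their median fold was 9.41, and that of the other 39 genes 6.52. In germ-free replicate 2 it was 8.24, and that of the other 41 genes 6.33. The intervals of the 8 also covered more of the window, a median of 846.5 bp against 520 bp in conventional replicate 2 and 1077.5 bp against 598 bp in germ-free replicate 2. In conventional replicate 1 the medians were 5.66 for 5 genes and 4.25 for 5 others. In germ-free replicate 1 the medians were equal, at 6.35 for 6 genes and 6.35 for 7 others. High fold was not enough for an E. coli call, since Eif3d, at 10.1 in conventional replicate 2 and 11.4 in germ-free replicate 2, had none. The E. coli lists were the shortest, and the part of list length in these calls was not tested. No such split over all marked genes is given here, so these gaps are not read as a trait of the factor genes.

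**Figure D4:**
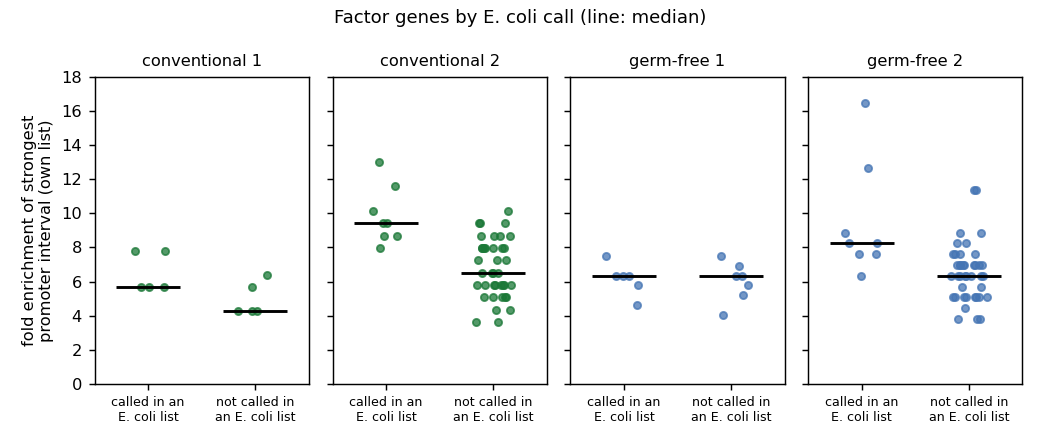
Fold of the strongest promoter interval (y axis, authors' value within each list) in the conventional and germ-free libraries, for factor genes called in at least 1 E. coli list (left) and in none (right); points are genes and lines medians. The medians are 9.41 and 6.52 in conventional replicate 2 and 8.24 and 6.33 in germ-free replicate 2, with overlapping points. The split is not shown for all marked genes.

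Within the longest lists the strongest intervals of the factor promoters had a slightly higher median fold than those of all marked genes. The median fold of the strongest interval was 7.24 over 47 factor genes and 6.52 over all 7248 marked genes in conventional replicate 2. It was 6.97 over 49 and 6.33 over 6546 in germ-free replicate 2. In the other lists it was 5.66 and 5.66 in conventional replicate 1, 5.33 and 5.33 in E. coli replicate 1, 5.70 and 5.70 in E. coli replicate 2 and 6.35 and 5.77 in germ-free replicate 1. Fold values move in steps, and in the longest lists the gap is the smallest that the steps allow. The 2 longest lists named many of the same genes. They shared 44 factor genes, which is 93.6% of those in conventional replicate 2 and 89.8% of those in germ-free replicate 2, against 78.6% and 87% for all marked genes. The intervals overlapped at 39 of the 44, and not at Eef2k, Eif1ad, Eif3h, Eif4b and Eif4e. Overlap of intervals was not counted over all marked genes, so these counts have no share to stand beside.

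The intervals lay mostly downstream of the start site. Where a gene has several start sites, distances are from the one nearest to its own intervals, so they are not independent of the calls. The set of all marked genes includes some with 0 bp covered around that site, which lowers its shares. Among the factor genes the least covered was 147 bp in conventional replicate 2 and 35 bp in germ-free replicate 2. In conventional replicate 2 the position covered most often was 425 bp downstream, covered at 34 of 47 factor genes (72.3%), and for all marked genes it was 350 bp, at 62.2%. In germ-free replicate 2 it was 450 bp downstream at 33 of 49 genes (67.3%), and 450 bp at 56.2% for all. The start site itself was covered at 6 of 47 genes (12.8%, against 21.9% of all) in conventional replicate 2 and at 10 of 49 (20.4%, against 17.5%) in germ-free replicate 2. In the other lists it was covered at none of the 10 genes called in conventional replicate 1 (against 6.66% of all), the 5 and 4 in the E. coli lists (9.32% and 6.75%) and the 13 in germ-free replicate 1 (6.78%).

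**Figure D5:**
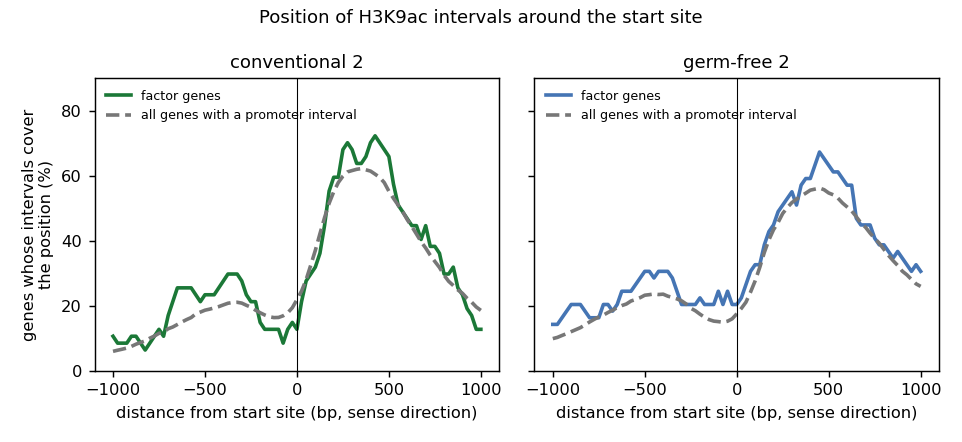
Percentage of genes whose promoter intervals cover each position (y axis) against distance from the start site in the direction of transcription (x axis, bp), for factor genes (solid) and all genes with a promoter interval (dashed) in conventional replicate 2 and germ-free replicate 2. Coverage peaks downstream, at 72.3% and 67.3% of the factor genes, and dips at the start site. The start site used is the one nearest to the gene's own intervals.

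Some factor genes share a promoter interval with a second gene, and there more of the strongest intervals lay upstream. At least 1 promoter interval was tied to a second gene for 12 of the 52 genes (23.1%, against 23.3% of all marked genes), and all of them for 10 (19.2%, against 19%). Besides Eef1b2 with Ndufs1, Eif2a with Serp1 and Eif5b with Txndc9, they include Eif2s1 with Atp6v1d, a proton pump subunit gene, Eif3i with Tmem234 and Eif1ad with Banf1. The 12 also include Eif4a2, whose partner Snord2 lies inside it, and Eif3j1, tied to Eif3j2 on another chromosome. Neither of these pairs is a promoter shared with a neighbour. Eif3j1 is still counted below as shared, downstream in conventional replicate 2 and upstream in germ-free replicate 2. Of 6 partners with an entry in the promoter table, all 6 lie on the opposite strand, and 5 start 17 to 802 bp upstream of the factor gene. The midpoint of the strongest interval was upstream for 6 of the 9 genes whose interval is shared with a coding gene in conventional replicate 2 (66.7%) and 8 of 10 in germ-free replicate 2 (80%). For all marked genes with a shared interval the shares were 49.9% and 50.8%. At unshared factor promoters it was upstream for 5 of 38 (13.2%) and 5 of 39 (12.8%), against 14.6% and 18.1% of all such genes. A shared interval cannot be given to 1 of its genes from these lists.

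The wider translation pathway was also called mostly in the longest lists. Of 40 other genes of translation and its control, 35 had a promoter interval in any library, against 8164 of all 21900 protein-coding genes. Per library, 7 and 33 were called in the conventional, 5 and 2 in the monoassociated and 10 and 28 in the germ-free libraries. As shares of the 35 these were 20% and 94.3%, 14.3% and 5.71%, and 28.6% and 80%, beside the shares of all marked genes given above. Called in all 6 were 2 (5.71%, against 2.72% of all marked genes), Atf4, the transcription factor made when eIF2 is phosphorylated, and Ppp1r15b, a phosphatase subunit that removes that phosphate. Atf4 had a fold of 8.49 and 11.6 in the conventional lists, 5.33 and 6.41 in the E. coli lists and 5.19 and 9.50 in the germ-free lists. Ppp1r15b had 6.37 and 18.1 in the conventional, 5.92 and 8.55 in the monoassociated and 8.08 and 12.04 in the germ-free lists. Called in both germ-free libraries and in no E. coli library were 6 of the 35 (17.1%, against 18.1% of all marked genes), the mTOR activator Rheb and its inhibitor Tsc1, the kinase Rps6kb1 and its substrate Rps6, Paip1 and the release factor Gspt1. Called in both conventional and neither E. coli library were 3 (8.57%, against 15%), Rps6kb1, the helicase Ddx3x and Paip1. Tufm, the mitochondrial elongation factor Tu, was called in both conventional libraries and in neither germ-free library, at 4.25 and 5.07, and also in E. coli replicate 1, at 5.33. It was the 1 gene of the 35 with that pattern (2.86%, against 0.808% of all marked genes). The 4.25 is the lowest fold in the list of conventional replicate 1.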

How the data were processed

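H3K9ac libraries of 3 groups, 2 each, were grouped by their labels. The submitters' processing notes name Bowtie 1.2.0, MACS2 2.1.1.20160309 and the build mm10. Per the labels, reads were single-end, 50 bp and 20 M a library. Which calling options and which input control were used is not given in the sources used here. The deposited lists each hold the intervals of 1 library, so libraries were not pooled.

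The deposited lists give, as the authors' values, the pileup at the summit (signal, coverage by extended reads), the -log10 of p and q, and the fold enrichment (a ratio of pileup to background). The list of germ-free replicate 2 has 14 header names over 13 cells a line, and lacks the pileup. What each of its columns holds was read from the values, and its background was inferred from fold steps.

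Lines repeating an interval were merged. Of 10621 gene names, 10567 matched RefSeq GRCm38.p6 and 54 did not. A promoter interval was one tied to a gene and overlapping 1 kb on either side of a start site of that gene, from the promoter table or from lines naming that gene alone. Where a gene had several intervals, the one of highest fold was used. Distances were measured from the gene's start site nearest to its promoter intervals over all lists. Lists hold no interval under a fold of 3.62 to 4.28, so an unlisted promoter may carry the mark. Counts of calls were described beside those of all genes. No test was run on these counts. Named members were those called in all 6 libraries, in both of 1 group and neither of another, or in both E. coli libraries, the 5 of highest fold in each list, and uncalled members of complexes, and other members were added after their values were seen, so that none is left out. Members and lists were chosen with earlier results of these data known. The window, the authors' promoter class, a -log10 q limit of 5, equal numbers of intervals, unshared intervals and each library were varied. Python 3.11.15, pandas 2.3.3, NumPy 2.4.6 and matplotlib 3.10.9 were used, and the interval assignment was tested on simulated data.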

Additional observations from a re-analysis of the deposited data

How the results depend on the processing

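The count of genes called in any library stayed between 47 and 52 when 1 library was left out, and was 9 with equal numbers of intervals. The count in all 6 libraries was 1 to 3 with 1 library left out: 2 without E. coli replicate 1 (Eif3a joined Eif4a2) and 3 without E. coli replicate 2 (Eif2a and Eif4h joined). It was 2 with a window of 2.5 kb, which added Eif4enif1, and 0 at a minimum -log10 q of 5, as well as with intervals tied to a single gene. That call of Eif4enif1 comes from the block upstream of the gene, shared with Sfi1, in both E. coli lists, conventional replicate 1 and germ-free replicate 1. The block is described below. Genes in both conventional and neither germ-free library were 0 to 3 with 1 library left out, and in both germ-free and neither conventional library 0 to 5. Genes in both germ-free libraries and no E. coli library were 7 to 41 with 1 library left out and 1 with equal numbers. Genes in both conventional and neither E. coli library were 5 to 39 with 1 library left out, 3 with a window of 0.5 kb, 2 at a minimum -log10 q of 5 and 0 with equal numbers. Genes in both E. coli libraries and neither library of another group were 0 under every setting run. The authors' own promoter class moved no count by over 1.5 times. The start site printed on each line, an alternative chosen after seeing the data, gave the same 8 counts. No paired analysis was possible because the results are counts of calls with no test, and the labels tie a replicate number to no animal or batch. The lowest fold listed was 4.25 and 3.62 in the conventional, 4.14 and 4.28 in the monoassociated and 4.04 and 3.80 in the germ-free lists, and weaker enrichment could not be seen in them.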

Other observations

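Outside promoters, 4 and 18 intervals tied to the factor genes were listed in the conventional, 4 and 5 in the monoassociated and 10 and 29 in the germ-free libraries. Such intervals were not counted over all genes, and the lists differ in length. The largest of those tied to factor genes lay upstream of Eif4enif1, the gene of the eIF4E transporter, and are tied to Sfi1 as well. They were centred at -3.28 to -7.23 kb from the start site. They covered 4876 and 5221 bp in the conventional, 5067 and 4937 bp in the monoassociated and 5074 and 4919 bp in the germ-free lists. The highest fold there was 15.6 and 15.2 in the conventional, 23.7 and 17.1 in the monoassociated and 27.1 and 16.5 in the germ-free lists. This block was as long in the short E. coli lists as in the long ones. The promoter interval of Eif4enif1 itself was listed only in conventional replicate 2 and germ-free replicate 2. Its strongest interval stood above 94.8% (E. coli replicate 2) to 99.4% (germ-free replicate 2) of the intervals of its list. The input control is not known, and whether the block reflects the mark was not tested.

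Around Eif2ak3, the PERK gene, conventional replicate 2 listed 4 further intervals and germ-free replicate 2 listed 5. They were centred between -31.2 kb and 2.01 kb from the start site. The highest had a fold of 6.52 in conventional replicate 2 and 9.50 in germ-free replicate 2, where the promoter interval had 6.97. Eif4e3, which had no promoter interval, was tied to a group of intervals 143 to 147 kb downstream of its start site. These lie beyond the end of the gene, and the authors class them as intergenic. Whether they belong to Eif4e3 or to another gene was not tested. They were listed in conventional replicate 2, E. coli replicate 2 and both germ-free libraries. The highest fold in that group was 9.41 in conventional replicate 2, 4.28 in E. coli replicate 2 and 4.62 and 8.24 in the germ-free lists.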
